A study of Mus musculus with 116 samples.

Results

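The 10 genes described here encode the main heat shock proteins of the mouse cytosol and of the mitochondrial matrix, and were named as a list, out of 40202 gene symbols in the count files. They are Hsp90aa1 and Hsp90ab1 (HSP90), Hspa8, Hspa1a and Hspa1b (HSP70), Dnaja1 and Dnajb1 (J-domain partners of HSP70), Hspb1 (a small heat shock protein), and Hspd1 and Hspe1 (the mitochondrial chaperonin). All 10 were present in the files. Lysates of 2 mouse cell lines were split in nanodroplets (nanoSPLITS), and the RNA was read as full-length cDNA. The cells were grown under standard culture with no treatment. C10 is labelled as an alveolar type II epithelial line and SVEC as an endothelial line. The C10 input series held 8 libraries of 1 cell, 6 of 3 cells and 6 of 10 cells, and a separate set held 48 libraries of single C10 cells and 48 of single SVEC cells. The labels name no separate cultures, so the p-values of the input series measure only the spread between libraries, which may be technical, and each single-cell line counts as 1 sample with no test.

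Heat shock proteins are chaperones, which bind unfolded proteins and help them to fold or keep them from clumping. HSP70 proteins work with J-domain proteins that bring them their clients, HSP90 proteins finish the folding of kinases and receptors, and the HSPD1 and HSPE1 proteins form a folding chamber in the mitochondrial matrix. Some of these genes (Hspa8, Hsp90ab1) are made at all times, and others (Hspa1a, Hspa1b, Dnajb1, Hspb1) are known as genes switched on by heat shock factor 1 when cells are stressed. That factor binds repeats of the letters GAA and TTC, the heat shock element.

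The stretches before the starts of Hspa1a, Hspa1b and Hspb1 are shown because these genes were at 0 in many or all libraries of a line, and a short stretch of Hspe1 because it shares it with Hspd1. Sequences are from RefSeq (build GRCm38.p6), run 5′ to 3′ on the gene's own strand and end 1 base before the start, except that of Hspe1. Capitals mark matches to GAANNTTC or TTCNNGAA.
Hspa1a, chr17:34972157-34972406, minus strand: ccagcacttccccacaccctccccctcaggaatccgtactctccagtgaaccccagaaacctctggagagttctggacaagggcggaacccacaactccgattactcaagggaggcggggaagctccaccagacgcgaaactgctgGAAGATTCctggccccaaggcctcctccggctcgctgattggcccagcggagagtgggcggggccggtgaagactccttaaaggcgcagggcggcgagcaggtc
Hspa1b, chr17:34959239-34959488, minus strand: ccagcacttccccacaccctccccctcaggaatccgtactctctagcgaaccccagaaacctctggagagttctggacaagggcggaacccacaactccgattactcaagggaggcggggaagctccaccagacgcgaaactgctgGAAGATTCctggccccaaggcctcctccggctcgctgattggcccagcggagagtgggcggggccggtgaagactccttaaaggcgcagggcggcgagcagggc
Hspb1, chr5:135887669-135887918, plus strand: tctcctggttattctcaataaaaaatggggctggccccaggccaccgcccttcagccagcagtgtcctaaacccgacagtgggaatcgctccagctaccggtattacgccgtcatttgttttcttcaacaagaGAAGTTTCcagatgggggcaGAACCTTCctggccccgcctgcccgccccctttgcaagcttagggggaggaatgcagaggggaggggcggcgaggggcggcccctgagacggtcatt
Hspe1, chr1:55088053-55088082, plus strand, 95 to 66 bases before its start: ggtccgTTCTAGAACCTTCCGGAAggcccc

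The Hspa1a and Hspa1b stretches were the same at 247 of 250 bases (98.8%). Counted backwards from the start, with the Hspa1a base first, they differed by C207T, T204C and T2G. Each held GAANNTTC once, beginning 104 bases before the start, and Hspb1 held it at 117 and 97 bases. Hspe1 and Hspd1 are read in opposite directions, and the Hspe1 stretch lies between its start and 1 of the 2 annotated starts of Hspd1, while the other start lies beyond it and an exon annotated for Hspd1 overlaps it. It carries 3 overlapping matches in 1 unbroken run, so that GAA and TTC blocks alternate with 2 free letters after each. Among 32851 annotated windows of 250 bases before a start, 12.84% held at least 1 of these words and 0.466% held a run of at least 2 overlapping ones. Both words read the same on either strand. The window before 1 of the 2 annotated starts of Hspd1 holds the same run on its other strand, and the other window holds neither word. Dnaja1 held GAANNTTC once before the first of its 3 annotated starts and neither word before the others. The windows before the starts of Dnajb1 held neither. A match is a description of letters in these windows and shows no binding.

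Library totals ranged from 430798 to 15385625 counts in the input series, from 56 to 5911755 in C10 single cells and from 5122 to 2831907 in SVEC single cells, with medians of 1801480 and 434945 in the last 2 groups. Levels are given as counts per 1000000 gene counts (CPM), so they are shares of a library, and fewer transcripts per cell cannot be told apart from more of other RNA. Replicates 37 and 48 of the C10 single cells held under 1000 counts and were left out, which left 46. One library of a single cell in the input series, replicate 1, held counts on 538 genes, gave 64.6% of its counts to mitochondrial genes, and had no count of any of the 10 genes. Defining markers of the labelled tissues were mostly absent: Sftpc, Sftpb, Sftpa1, Sftpd and Nkx2-1 had 0 counts in both lines, as had the endothelial genes Kdr, Vwf, Emcn and Esam. Cdh1, an epithelial gene, was counted in 24 of 46 C10 libraries, and the endothelial gene Flt1 in 8 of 48 SVEC and 13 of 46 C10 libraries. Of 5 fibroblast markers, Lum was at 0 in both lines and 2 were counted in at least 50% of the libraries of each line, the most frequent being Col1a1, in all 46 C10 and 47 of 48 SVEC libraries. No molecular identifiers are described, so the counts are of reads. The intervals below are binomial intervals of shares of libraries and cover only the sampling of cells within a line.

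The 10 genes took up a median of 0.679% of all counts in C10 single cells (range 0.416% to 0.936%) and 0.629% in SVEC single cells (0.0677% to 1.10%). Their levels spanned several orders of magnitude when set against transcript length. In C10 single cells Hsp90ab1 was highest at 1065 ± 310 CPM per kb (mean ± SD, n = 46), then Hspa8 at 849 ± 288, Hspe1 at 613 ± 332, Hsp90aa1 at 240 ± 127, Hspd1 at 187 ± 114 and Dnaja1 at 69.0 ± 34.7. Hsp90ab1 ranked 85th and Hspa8 119th of 13202 detected genes with a known length. The inducible genes came last: Dnajb1 had 11.8 CPM per kb, Hspa1b 2.17, Hspa1a 0.129 and Hspb1 0. Neighbours in this order stood further apart than the larger of their SDs at 3 places, from Hspe1 to Hsp90aa1, from Hspd1 to Dnaja1 and from Dnaja1 to Dnajb1. Of the 150-base windows of a transcript, 56.0% for Hspa8, 36.2% for Hsp90aa1 and 0.0% for Hsp90ab1 occur exactly in other annotated genes. How reads from such stretches were counted is not given in the sources used here. The order of these 3 genes and their ranks are uncertain for that reason, in both lines.

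In SVEC single cells Hspa8 was highest, at 1046 ± 593 CPM per kb (n = 48), and lay above Hsp90ab1 (490 ± 318) in 42 of 48 libraries. In C10 the same 2 genes stood the other way round, Hsp90ab1 above Hspa8, in 29 of 46 libraries. The lower end also differed in order, since Hspb1 (50.6 CPM per kb) stood above Dnajb1 (33.2) in SVEC and last in C10. Only the step from Hsp90aa1 to Hspd1 was larger than the larger SD in SVEC. Lengths are those of the longest protein-coding GENCODE M21 transcript (930 bases for Hspb1, whose other transcript, of 903 bases, was used for the shared windows below), and with the shorter of the 2 Dnaja1 transcripts considered here its C10 level per kb would be 115 in place of 69.0. With the shorter Hspa8 transcript, Hspa8 would be at 1006 CPM per kb in C10, near the 1065 of Hsp90ab1, and at 1240 in SVEC. The libraries in each order were not recounted with that length.

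The single-cell lines were compared for each gene by the ratio of mean CPM, with 1 CPM added, and a ratio of at least 2-fold was counted as a difference. Of 9303 genes with counts in 25% or more of one line's libraries, 33.0% were at least 2-fold apart, 15.8% higher in C10 and 17.2% lower, with a median log2 ratio of 0.02. With totals adjusted by the trimmed mean of M-values (TMM) that median moved to 0.33 and the split from 1466 higher and 1600 lower to 2200 and 996, and with medians in place of means it was 2926 and 362. Of the 10 genes, 8 passed the filter, with a median log2 ratio of -0.33. Of these, Hsp90ab1 was at least 2-fold higher in C10, and Dnajb1 and Hspb1 at least 2-fold higher in SVEC. Hspb1 passed only through the line where it was high, and shares of this size are near the background.

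Hsp90ab1, the constitutive cytosolic HSP90, was counted in every single-cell library. In C10 cells it ranged from 1399 to 4376 CPM with a median of 2613, and in SVEC cells from 145 to 3648 with a median of 1176. All 46 C10 cells lay above the SVEC median, 4 of 48 SVEC cells lay above the C10 median, and the ranges overlapped. The means were 2683 ± 780 (SD, n = 46) and 1236 ± 801 CPM (SD, n = 48), a log2 ratio of 1.12. The log2 ratio was 0.99 from pooled counts and 1.56 with TMM.

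Hsp90ab1 also differed between the C10 single cells and the C10 input series. In the 8 libraries of 1 C10 cell in the input series it ranged from 0 to 2590 CPM with a median of 1262, and the mean was 1209 ± 761 (SD). Single C10 cells were higher than these by a log2 ratio of 1.15, and all 46 lay above the input median. Without replicate 1, which had no count of any member, the ratio was 0.96, and with TMM it was 0.55. The means of the 3-cell and 10-cell libraries, 1737 ± 485 and 1615 ± 338 CPM (SD, n = 6 each), lay between the values of the C10 and SVEC single cells. Hsp90ab1 was the only member at least 2-fold apart between C10 single cells and 1-cell input libraries, where 42.5% of 12303 genes were at least 2-fold apart, 27.2% higher in the single cells (3345 genes) and 15.4% lower (1889 genes). With TMM that split was 2542 and 3033. The 2 sets of libraries and their depth cannot be told apart in this comparison.

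Hsp90aa1, the HSP90 gene with a stress-responsive promoter, stood the other way. It ranged from 0 to 1901 CPM with a median of 764 in C10 single cells, and from 0 to 2516 with a median of 1179 in SVEC. In SVEC 38 of 48 cells lay above the C10 median, and 6 lay above the highest C10 cell. The means, 787 ± 415 and 1218 ± 663 CPM (SD), gave a log2 ratio of -0.63, which was -0.20 with TMM and under 2-fold in each setting tried. So the pair had unequal mean CPM in C10, with Hsp90ab1 the higher, and near-equal mean CPM in SVEC. The 2 genes differ in the share of windows found in other genes, given above, so their levels against each other are uncertain.

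Hspa8, the constitutive HSP70, was counted in all 46 C10 cells and in 47 of 48 SVEC cells. It ranged from 781 to 3357 CPM with a median of 2028 in C10, and from 0 to 6778 with a median of 2342 in SVEC. The means were 2032 ± 690 and 2504 ± 1420 CPM (SD), a log2 ratio of -0.30 that changed sign to 0.07 with TMM. SVEC was the more spread, with 13 cells above the highest C10 cell, while 16 of 46 C10 cells lay above the SVEC median. The single SVEC library with no Hspa8 count was replicate 24, one of 6 SVEC libraries with under 100000 counts.

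**Figure D1:**
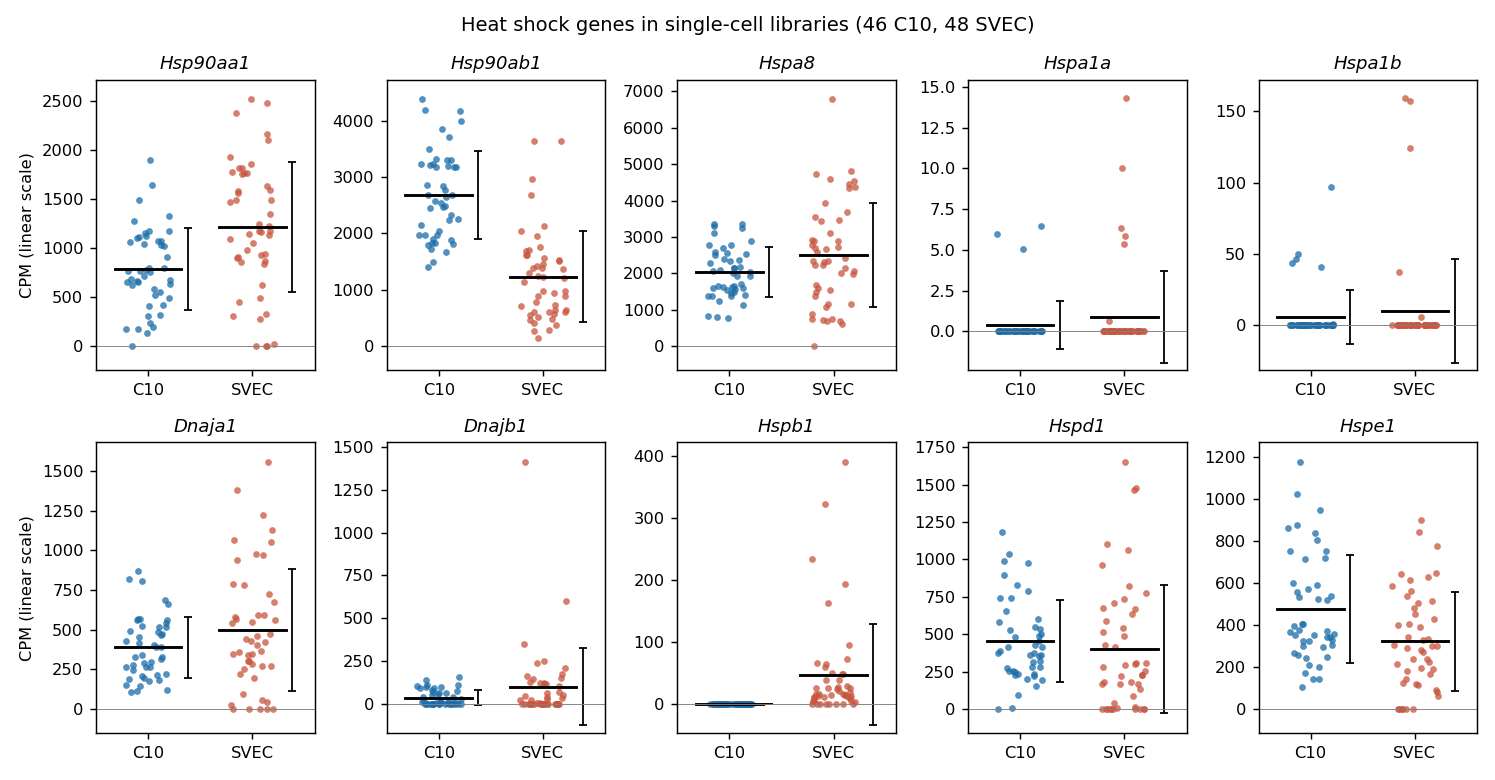
CPM (linear axis, separate scale per gene) of the 10 heat shock genes in 46 C10 (blue) and 48 SVEC (red) single-cell libraries. Each point is 1 library, horizontal lines are means and error bars to the right are ± 1 SD. Hsp90ab1 sits higher in C10 (mean 2683 CPM against 1236), Hspb1 is 0 in all C10 cells, and Hspa1a and Hspa1b are 0 in most cells of both lines.

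Hspa1a and Hspa1b, the inducible HSP70 pair on chromosome 17, were 0 in most cells of both lines. Hspa1b was counted in 6 of 46 C10 cells (13.0%, exact 95% binomial interval 4.94% to 26.3%) and in 5 of 48 SVEC cells (10.4%, 3.47% to 22.7%). Where it was counted it could be well above the floor: the highest cell of C10, replicate 6, held 97.0 CPM, and SVEC replicates 41, 18 and 40 held 159.5, 157.4 and 124.2 CPM. Hspa1a was counted in 3 of 46 C10 and 6 of 48 SVEC cells, and its highest value was 14.3 CPM, from 3 counts in SVEC replicate 47. All 3 C10 cells with Hspa1a also held Hspa1b, and all 5 SVEC cells with Hspa1b also held Hspa1a. Neither gene passed the filter on detection.

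The 2 genes share much of their sequence. Of the 150-base windows of the Hspa1a transcript, 46.0% occur exactly in another annotated gene, and 38.1% occur in Hspa1b. Of the Hspa1b windows, 40.5% occur in another gene, and 40.5% occur in Hspa1a. Reads of 150 bases from those stretches cannot be assigned to 1 gene. The counter for reads aligned to several places was 0 in every library, and how such reads were handled is not given in the sources used here. Values of either gene, and their joint presence, are uncertain for that reason.

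Dnajb1, a stress-inducible J-domain partner of HSP70, was counted in part of the cells of each line, in 29 of 46 C10 cells (63.0%, interval 47.5% to 76.8%) and 27 of 48 SVEC cells (56.3%, 41.2% to 70.5%). With each library drawn down to 100000 counts, and 3 C10 and 6 SVEC libraries too shallow left out, the shares were 44.4% and 59.5%, so their order changed. In C10 it ranged from 0 to 155 CPM with a median of 8.24, and in SVEC from 0 to 1415 with a median of 22.9. The means were 35.4 ± 44.6 and 99.5 ± 225 CPM (SD), a log2 ratio of -1.47. One SVEC cell, replicate 44, held 1415 CPM from 236 counts, and the next 2 held 603 and 347. Without replicate 44 the SVEC mean was 71.5 CPM and the ratio under 2-fold, and the log2 ratio was -0.86 from pooled counts and -0.88 with TMM.

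Replicate 44 of SVEC did not hold counts of every member. This library had counts on 1283 genes, against a median of 4404 in SVEC single cells, so a 0 there may be a missed transcript. It held 3640 CPM of Hsp90ab1, 3466 of Hspa8 and 1763 of Hsp90aa1, but no count of Hspa1a, Hspa1b, Dnaja1, Hspb1, Hspd1 or Hspe1, in a library of 166762 counts. The 10 listed immediate early genes, such as Fos and Ier2, which respond within minutes to many stimuli, summed to 3022 CPM there. Their sum had a median of 667 CPM in C10 single cells (range 77.2 to 2086) and 1625 in SVEC (0 to 5124). By library totals, 7 of 10 of them were at least 2-fold higher in SVEC, against 17.2% of all genes. Junb, Egr1 and Jun lay near that line, at log2 ratios of -1.04, -1.05 and -1.14. With TMM, 996 of 9303 genes were at least 2-fold higher in SVEC, and the 10 genes were not recounted. The rank correlation of Dnajb1 with the summed immediate early genes was 0.15 over 46 C10 and 0.41 over 48 SVEC cells, which share culture and depth. The part of these genes' level in the Dnajb1 difference was not tested.

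Dnaja1, the J-domain protein that serves HSP70 in the unstressed cytosol, was counted in all 46 C10 cells and 43 of 48 SVEC cells. It ranged from 108 to 872 CPM with a median of 365 in C10, and from 0 to 1557 with a median of 427 in SVEC. The means, 388 ± 195 and 499 ± 386 CPM (SD), gave a log2 ratio of -0.36 (-0.04 with TMM, -0.83 from pooled counts). The groups overlapped over the whole C10 range, and 9 SVEC cells lay above the highest C10 cell.

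Hspb1, which encodes HSP25, an ATP-independent chaperone that also binds the actin skeleton, separated the lines most clearly. It had 0 counts in all 46 C10 single cells and in all 20 C10 input libraries, 66 libraries with 312889874 gene counts in all. In SVEC it was counted in 40 of 48 cells (83.3%, interval 69.8% to 92.5%), with a median of 15.3 CPM, a highest value of 390 CPM and a mean of 47.1 ± 81.4 CPM (SD). The 390 CPM came from replicate 9, a library of 5122 counts, and among the 42 SVEC libraries with at least 100000 counts the highest was 233 CPM and the mean 32.7 ± 46.9. The reads behind these values were few: the median was 12 counts in the 40 cells with a count, 29 cells held more than 3, and the highest count was 154, in replicate 40.

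Set against a floor of 3 counts per C10 single-cell library, which averages 3.32 CPM, Hspb1 was at least 14.2-fold higher in SVEC. Against all 66 C10 libraries the bound was 18.8-fold, and with libraries under 100000 counts left out it was 12.6-fold. The 0 of 46 C10 cells allows a share of up to 6.52% of cells with a count (3 of 46), and the exact binomial interval reaches 7.71%. The C10 libraries were the deeper ones, and with all libraries drawn down to 100000 counts Hspb1 was still counted in 30 of 42 SVEC cells and in 0 of 45 C10 cells. Of the 150-base windows of the Hspb1 transcript, 53.4% occur in other annotated genes, so part of its reads could be missed in either line.

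**Figure D2:**
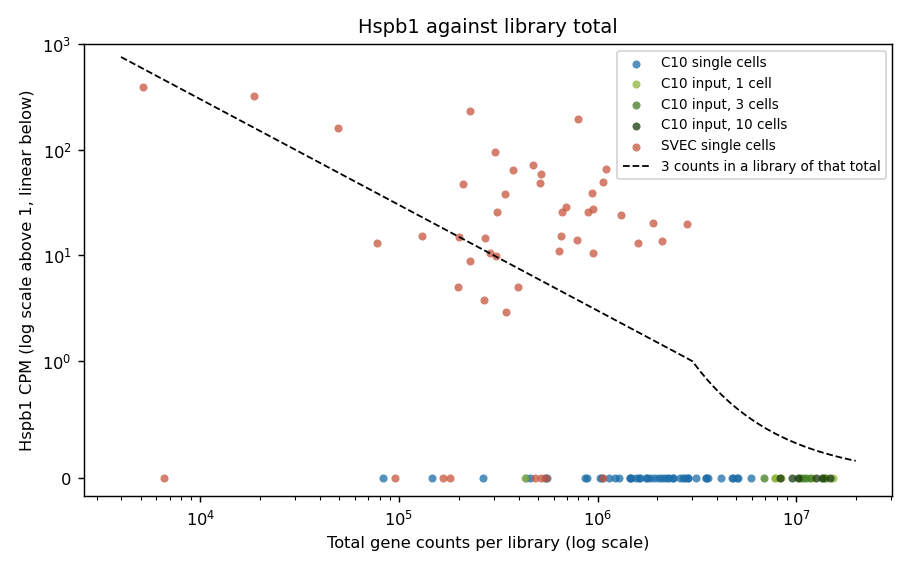
Hspb1 CPM (log axis above 1, linear below) against the total gene counts of each library (log axis) in SVEC single cells (red), C10 single cells (blue) and the C10 input series (greens). The dashed line is the CPM that 3 counts give at each total. All 66 C10 libraries lie at 0, the deepest included, and 40 of 48 SVEC libraries lie above 0.

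Both genes of the mitochondrial pair were under 2-fold apart between the lines in each setting tried. Hspd1, the HSP60 subunit of the chaperonin, ranged from 0 to 1185 CPM with a median of 380 in C10, and from 0 to 1650 with a median of 268 in SVEC, with means of 452 ± 276 and 401 ± 426 CPM (SD) and a log2 ratio of 0.17. It was counted in 45 of 46 C10 cells but in 38 of 48 SVEC cells, and the SVEC share was 78.6% at 100000 counts. Hspe1, the HSP10 lid of the same chamber, ranged from 104 to 1175 CPM with a median of 375 in C10, and from 0 to 902 with a median of 295 in SVEC. Its means were 474 ± 257 and 322 ± 235 CPM (SD), a log2 ratio of 0.56, with 36 of 46 C10 cells above the SVEC median. Over the settings tried, the log2 ratio ran from 0.08 to 0.57 for Hspd1 and from 0.34 to 0.88 for Hspe1.

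Hspd1 and Hspe1 share the stretch between their starts shown above, and their levels were weakly related from cell to cell. The rank correlation was 0.05 over 46 C10 cells and 0.06 over 48 SVEC cells, and Pearson's r of the log2 values 0.30 and 0.11. In SVEC, 34 cells held both. Across the 6 members found in at least 38 cells of each line (Hsp90aa1, Hsp90ab1, Hspa8, Dnaja1, Hspd1 and Hspe1) the median of the 15 pairwise rank correlations was 0.10 in each line. The highest in C10 was 0.28, between Hsp90ab1 and Dnaja1. In SVEC it was 0.50, between Hsp90ab1 and Hspa8, a pair at 0.08 in C10 (the difference was not tested). These values depended on the measure: by Pearson's r of the log2 values that pair was at 0.33 in SVEC and 0.11 in C10, the highest SVEC pair was Dnaja1 and Hspe1 at 0.61, and the medians were 0.25 in SVEC and 0.11 in C10. Hspa8 and Dnaja1 also followed the library total in SVEC, with rank correlations of 0.48 and 0.47. In C10 the rank correlations of the 6 members with the library total ran from -0.21 (Dnaja1) to 0.39 (Hspd1). Cells of a line share depth and culture, and these values are descriptions.

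**Figure D3:**
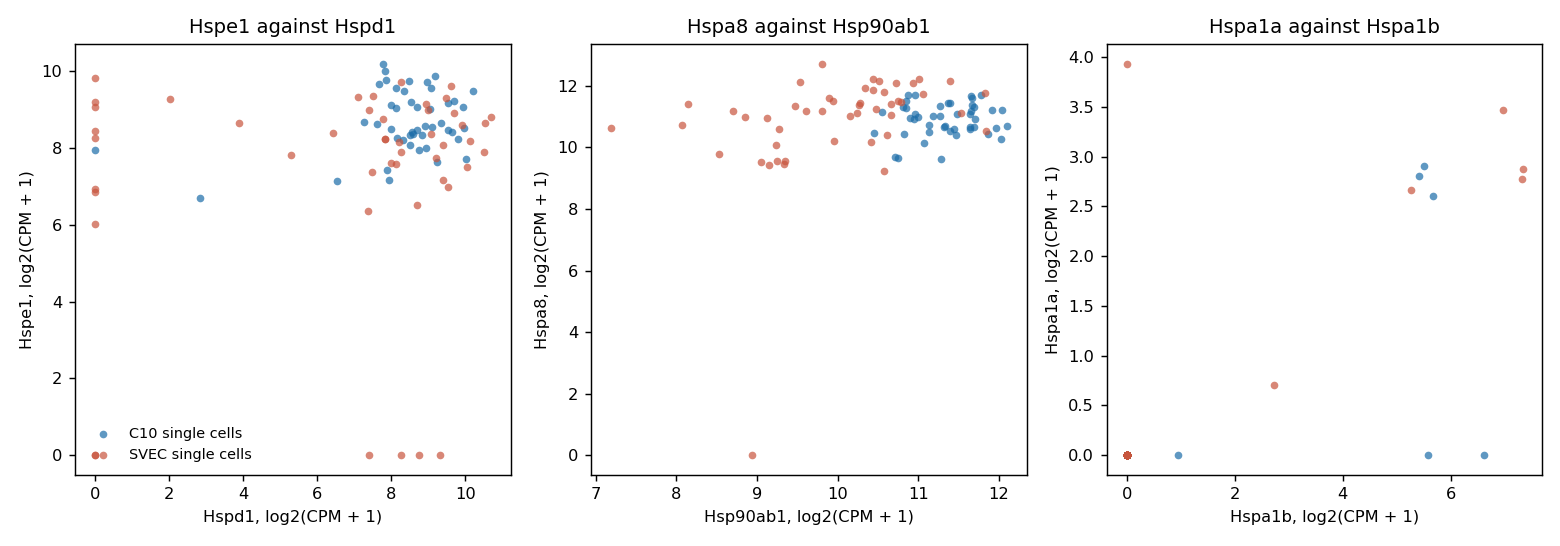
Levels of 3 pairs of members in single cells as log2(CPM + 1), with 1 point per library (C10 blue, SVEC red). Hspe1 against Hspd1 forms no diagonal (rank correlation 0.05 and 0.06), Hspa8 against Hsp90ab1 rises in SVEC (0.50) more than in C10 (0.08), and most cells lie at 0 for both Hspa1a and Hspa1b.

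The genes most like each member were looked for among 5715 genes in C10 and 3525 in SVEC with a count in at least 50% of those libraries that held at least 100000 counts. Hspa8 was followed by 1700016L04Rik, with a rank correlation of 0.89 over 45 C10 and 0.94 over 42 SVEC libraries. Hsp90aa1 was followed by Ssh2, a gene for a cofilin phosphatase, at 0.85 and 0.87. The next genes stood far lower, at 0.58 (H13) and 0.57 (Ywhaz) for Hspa8 and at 0.60 (Eny2) and 0.45 (Aadacl4fm1) for Hsp90aa1. No other member had the same gene first in both lines.

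In the annotation, the span of Ssh2 holds Gm12346, a processed pseudogene copy of Hsp90aa1, and the span of 1700016L04Rik holds Gm8355, a processed pseudogene copy of Hspa8. Exact 150-base windows shared with the member make up 30.0% of the Hsp90aa1 transcript for Gm12346 and 21.6% of the Hspa8 transcript for Gm8355. The span of Psmd13, the gene most like Dnaja1 in SVEC (0.65), holds Gm15542, a processed pseudogene with 11.1% of the Dnaja1 windows. In C10 the gene most like Dnaja1 was another, Gm31328 (0.56). The ratio of the counts varied less between groups than between single libraries for Ssh2, and differed between the input series and the single cells for 1700016L04Rik. Ssh2 held a median of 18.8% of the Hsp90aa1 count in 44 C10 single cells (quartiles 17.0% and 23.3%, range 10.1% to 83.2%) and 18.9% in 40 SVEC cells (17.1% and 23.4%, range 12.7% to 58.2%), and 17.0% to 17.1% in the 3 input groups. 1700016L04Rik held 12.4% of the Hspa8 count in 45 C10 cells (quartiles 11.9% and 13.7%, range 10.2% to 19.3%) and 11.2% in 42 SVEC cells (10.4% and 12.0%, range 7.89% to 25.0%), and a lower 8.23% to 9.87% in the input groups. Whether reads of the members were counted under these genes was not tested.

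**Figure D4:**
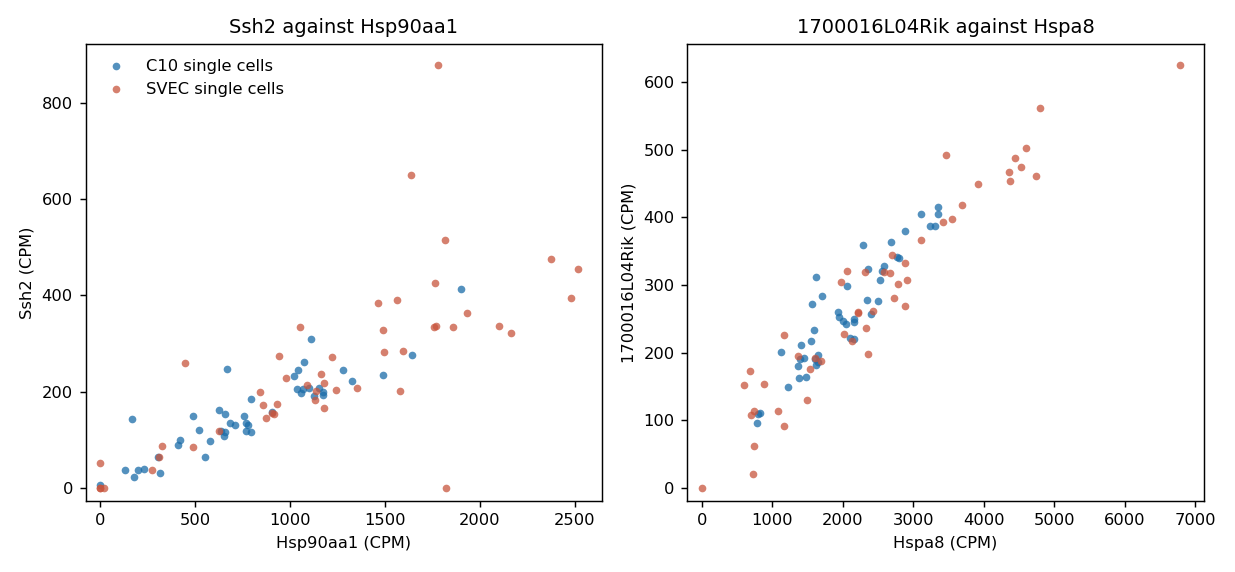
CPM of Ssh2 against Hsp90aa1 (left) and of 1700016L04Rik against Hspa8 (right) in C10 (blue) and SVEC (red) single cells, linear axes, 1 point per library. Most points of both lines lie along 1 line in each panel, with 1 SVEC cell high in Hsp90aa1 but at 0 for Ssh2 on the left, and at medians of 18.8% and 18.9% of the Hsp90aa1 count on the left and 12.4% and 11.2% of the Hspa8 count on the right.

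For the other members the most alike genes differed by line. Hspd1 was followed in C10 by Slc7a5 (0.60), an amino acid transporter, Atf4 (0.60), a transcription factor of amino acid and mitochondrial stress, and Vnn1 (0.58), and in SVEC by Sqstm1 (0.65), Scpep1 and Mcm6. Hspe1 was followed in C10 by Rimklb (0.74) and by the ribosomal protein genes Rpl23 (0.71) and Fau (0.71), and the genes most like it in SVEC included Ndufb10 (0.61), a subunit of respiratory complex I, and Eif3k (0.60). Dnajb1 in SVEC was followed by the immediate early genes Ier2 (0.53) and Junb (0.47). Hsp90ab1 was followed by Set (0.60) in C10 and in SVEC by Serpinh1 (0.57), the collagen chaperone HSP47. Over all genes compared, the median correlation with a member lay between -0.03 and 0.08, and these genes are taken from the 3 highest of all compared.

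The input series asked how the measured levels depend on the number of cells in a droplet. With edgeR's quasi-likelihood test and Benjamini-Hochberg adjustment over 13645 genes, 10.7% differed between 10 cells and 1 cell, 6.35% between 3 cells and 1 cell and 0.0% between 10 and 3 cells. At an unadjusted p under 0.05, 1346 genes differed between 10 and 3 cells, and DESeq2 called 289 and limma 35. The count for 10 cells against 1 cell, 1456 genes, was 336 without replicate 1 and 2769 without replicate 10 of the 1-cell libraries. None of the 8 members that passed the filter was among them in any comparison. The other 2, Hspa1a and Hspb1, were counted in under 50% of the libraries of every group. For 10 cells against 1 cell the log2 fold changes were -0.52 (SE 0.92) for Hsp90aa1, 0.11 (SE 0.75) for Hsp90ab1, -0.29 (SE 0.75) for Hspa8, -0.16 (SE 2.26) for Hspa1b, -0.98 (SE 0.85) for Dnaja1, -0.26 (SE 1.73) for Dnajb1, -0.41 (SE 0.88) for Hspd1 and -0.23 (SE 0.78) for Hspe1. The lowest adjusted p by edgeR was 0.772, for Dnaja1. The median over all genes tested was 0.36. These errors leave room for changes of 2-fold and more, so the members were not shown to be alike in the 3 groups.

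The spread between libraries was also compared. The coefficient of variation (SD divided by mean) of CPM over libraries, as a median of the 6 widely found members, was 0.681 at 1 cell, 0.304 at 3 cells and 0.235 at 10 cells. Without replicate 1 the value at 1 cell was 0.517. Hsp90aa1 narrowed most, from 0.994 (0.858 without replicate 1) to 0.578 and 0.121. Its 1-cell libraries ran from 0 to 1871 CPM with a median of 432, its 3-cell libraries from 39.0 to 1075 with a median of 651, and its 10-cell libraries from 584 to 820 with a median of 726. Hspa8 narrowed less, from 0.493 (0.267 without replicate 1) to 0.292 and 0.191. Without replicate 1, Hspa8 and Hspe1 (0.307 at 1 cell and 0.316 at 3 cells) were no narrower at 3 cells than at 1. Hspd1 stood at 0.279 and 0.283 at 3 and 10 cells. No test was made of these differences in spread, and the spread of other genes was not computed, so the narrowing is not shown to be particular to the members.

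Of the rarely counted members, Dnajb1 was counted in a larger share of libraries at 3 and 10 cells than at 1. Hspa1b was counted in a rising share, Hspb1 in none, and Hspa1a in 0 of 8, 2 of 6 and 1 of 6. Detection rose in general, with counts on a median of 7568, 10257.5 and 12986 genes at 1, 3 and 10 cells. Dnajb1 was counted in 2 of 8 libraries of 1 cell, replicate 10 with 362 CPM and replicate 6 with 163 CPM, and in all 6 libraries of 3 cells (27.7 to 153 CPM) and all 6 of 10 cells (31.0 to 80.7 CPM). Hspa1b was counted in 1 of 8, 2 of 6 and 3 of 6 libraries. Its highest values were 30.1 CPM at 1 cell, 33.7 at 3 cells and 14.7 at 10 cells. Among the common members Hspd1 was low in 1 library, at 11.8 CPM in replicate 13 of the 1-cell libraries, against 378 to 1215 CPM in the other 6 libraries that held counts of the family.

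**Figure D5:**
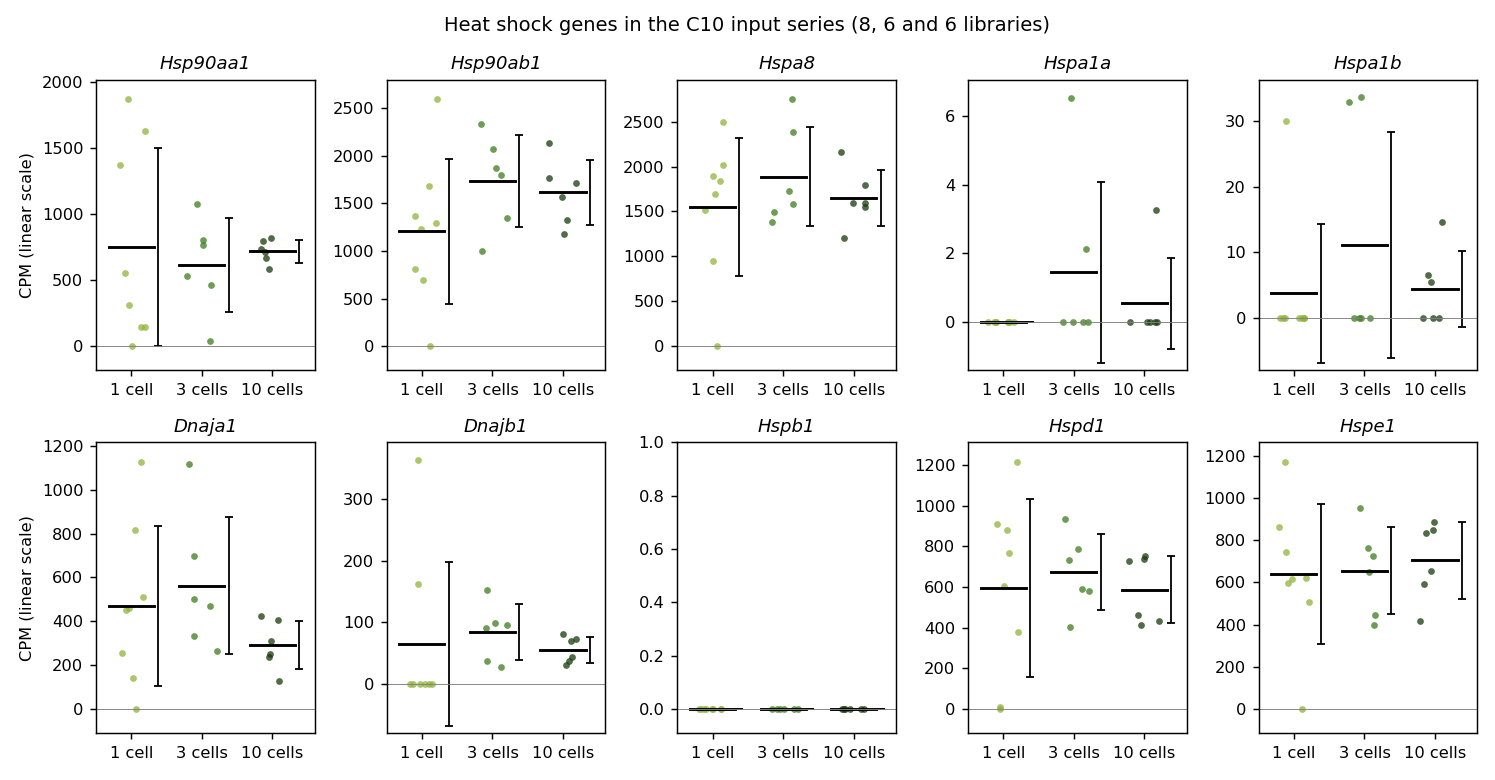
CPM (linear axis, separate scale per gene) of the 10 heat shock genes in C10 libraries of 1 cell (n = 8), 3 cells (n = 6) and 10 cells (n = 6). Each point is 1 library, horizontal lines are means and error bars are ± 1 SD. Points draw together from 1 to 10 cells for Hsp90aa1 (coefficients of variation 0.994, 0.578 and 0.121), Dnajb1 is counted in 2 of 8, 6 of 6 and 6 of 6 libraries, and Hspb1 is 0 throughout.

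Other genes were taken from 8 lists of chaperone systems and the list of immediate early genes, chosen with earlier results of these data known. Of these 83 genes, 71 passed the filter for the single cells, and 3 were at least 2-fold higher in C10 and 14 in SVEC, against 15.8% and 17.2% of all genes. Their median log2 ratio was -0.08. Without the immediate early genes, 61 passed the filter, and 3 were at least 2-fold higher in C10 and 7 in SVEC. The counts and ratios of listed genes are by library totals and were not recounted with TMM, which moved the split of all genes towards C10. The 8 subunits of the cytosolic chaperonin TRiC all lay within 2-fold. Of 13 partners of HSP90, 0 were higher in C10 and 2 in SVEC. Of 10 mitochondrial chaperones and proteases, 1 was higher in C10, Hspa9, the HSP70 of the mitochondrial matrix, which had 642 ± 438 CPM (SD, n = 46) against 266 ± 276 (SD, n = 48), a log2 ratio of 1.27. The other 2 were the J-domain genes Dnajb14 (log2 ratio 1.45) and Dnajc2 (1.07), which acts at the ribosome. Dnajb14 was low, at 13.5 ± 36.9 CPM in C10 and 4.33 ± 14.1 in SVEC (SD), with medians of 1.34 and 0.0. Dnajc2 had 103 ± 98.4 and 48.6 ± 87.6 CPM (SD).

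On the SVEC side, Hspb6, another small heat shock protein gene, had the largest ratio among listed genes counted in at least 50% of the cells, with 175 ± 193 CPM in SVEC and 22.7 ± 51.3 in C10 (SD, log2 ratio -2.89). It was counted in 32 of 48 SVEC and 14 of 46 C10 cells. Cryab, a further small heat shock protein gene, had 275 ± 180 CPM in C10 and 361 ± 248 in SVEC (SD), a log2 ratio of -0.39, so Hspb1 was at 0 in C10 cells that held its relative. It was named after its values were seen. Hsf1, the heat shock factor itself, had 16.5 ± 29.6 CPM in C10 and 54.3 ± 79.6 in SVEC (log2 ratio -1.66). Dnajc9, a histone co-chaperone, had 41.9 ± 63.6 and 191 ± 291 CPM (-2.16). Fos and Ier2, of the immediate early list, had log2 ratios of -2.35 and -2.22.

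In the input series 4 of 77 listed genes tested passed for 10 cells against 1 cell, all higher, and 5 of 77 for 3 cells against 1 cell, 4 of them higher, by edgeR's test, against 10.7% and 6.35% of all genes. The genes that rose were ones that at most 2 of the 8 libraries of 1 cell held. Dnajb2 was listed at 0 in all 8 libraries of 1 cell and counted in 5 of 6 libraries of 3 cells and 6 of 6 of 10 cells, and Egr1 at 0 in 8, and counted in 5 of 6 and 5 of 6. Dnaja4 rose at 10 cells, where 3 of 6 libraries held it, and Hspa2 at 3 cells, where 1 of 6 held it, at 62.1 CPM, each against 0 of 8 libraries of 1 cell. Hsf2 rose at both, with counts in 2 of 8, 4 of 6 and 2 of 6 libraries. Clpx, a mitochondrial protease subunit, fell from 147 ± 242 CPM (SD, n = 8) at 1 cell to 1.02 ± 2.03 (SD, n = 6) at 3 cells, and was at 24.4 ± 16.5 (SD, n = 6) at 10 cells. In the other set of C10 libraries Egr1 was counted in 32 of 46 single cells, at 51.6 ± 74.7 CPM (SD).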

How the data were processed

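RNA was measured in 116 libraries. The authors deposited 1 file per library of whole-number read counts for 40202 gene symbols with 5 closing counters, which were left out. The submitters' processing notes name FastQC, STAR and HTSeq. Versions, genome build, annotation and strand setting are not given in the sources used here. Reads were single, 150 bases long, per the labels' protocols.

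Counts were scaled to CPM over gene counts. Libraries under 1000 counts were left out. The input series was fitted with edgeR 4.0.16 (R 4.3.3, quasi-likelihood test, TMM factors, genes with counts in 50% or more of a group, adjusted p threshold 0.05), tested on simulated data. Single cells got no test: log2 ratios of mean CPM + 1, for genes with counts in 25% or more of one line. Shares have exact 95% binomial intervals, and the exact Poisson intervals of pooled levels are not printed. Alternatives were DESeq2 1.42.0, limma 3.58.1, other scalings, filters, pseudocounts and libraries left out. Leaving out each single-cell library, or replicate 1 of the 1-cell libraries from the comparison with single cells, was chosen after seeing the data.

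The members and lists were chosen with earlier results of these data known. Named were all 10 members, from the lists up to 5 genes a direction (single cells: the largest ratios past 2-fold, counted in at least 50% of the higher line; input series: those past the test), and genes among the 3 most alike in rank, of which 1 is not reported here. RefSeq held no window for Hsp90aa1, Hsp90ab1 and Hspa8 in the table used. Shared windows were matched in GENCODE M21 transcripts.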

Additional observations from a re-analysis of the deposited data

Results flagged for a closer look

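In 26 groups of 6 or 8 libraries of the input series, 8 values stood far from the rest of their group on the log2 scale. A rate of 1 in 20 groups would give 1.3, but it holds only for independent values without ties. The values below share a library or stand against others tied at 0, so the 8 cannot be set against that rate. Replicate 1 of the 1-cell libraries gave 5 of the 8, at 0.0 CPM of Hsp90aa1, Hsp90ab1, Hspa8, Dnaja1 and Hspe1 where the next libraries held 148, 693, 952, 142 and 507 CPM. It was the library with counts on 538 genes. Hsp90aa1 was low in replicate 5 of the 3-cell libraries, at 39.0 CPM against 467 in the next. Hspe1 was lowest there too, at 397 CPM, and Hsp90ab1 was second highest, at 2069 CPM. Hspa1b was high in replicate 2 of the 1-cell libraries, at 30.1 CPM with the others at 0, and Hspa1a in replicate 10 of the 10-cell libraries, at 3.26 CPM with the others at 0.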

How the results depend on the processing

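No member passed the test of the input series under any alternative, and the lowest adjusted p of a member for 10 cells against 1 cell was 0.0618 by edgeR (Hspa1b, without replicate 2 of the 1-cell libraries) and 0.0628 by limma (Dnajb1). Directions were not stable. The log2 fold changes of 10 cells against 1 cell turned positive with limma on log2(CPM + 1), to 1.51 for Hsp90aa1, 1.27 for Hspa8, 0.98 for Hspa1b, 0.38 for Dnaja1, 3.76 for Dnajb1, 1.53 for Hspd1 and 1.13 for Hspe1, where the median of all genes was 1.45. With library totals they were 0.087 for Hspa8, 0.22 for Hspa1b and 0.14 for Hspe1, and Hsp90ab1 fell to -0.23 with DESeq2's size factors and with its Wald test. Leaving out 1 library gave ranges of -0.71 to 0.10 for Hsp90aa1, -0.080 to 0.61 for Hsp90ab1, -0.48 to 0.012 for Hspa8, -0.35 to 8.42 for Hspa1b, -0.45 to 1.11 for Dnajb1, -0.60 to 0.028 for Hspd1 and -0.42 to 0.15 for Hspe1. The cause was not tested.

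Counts of genes called for 10 cells against 1 cell were 48 with no filter and 412 with counts required in 90% of a group, and 336 to 2769 with 1 library left out. For 3 cells against 1 cell they were 537 with DESeq2's size factors, 65 with no filter, 281 at 90%, 121 with limma and 32 to 2035 with 1 library left out. For 10 against 3 cells DESeq2 called 289 and limma 35. Between C10 single cells and 1-cell input libraries, 3239 genes were at least 2-fold apart by median CPM.

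Replicate numbers shared by the input groups did not pair the libraries: the 18 correlations of same-numbered deviations lay between -0.03 and 0.09. With the replicate block 0 genes were called for 10 or 3 cells against 1 cell, and 4 and 36 in the same libraries without it, and member values turned to 0.37 (Hsp90aa1), 0.22 (Hspa8), 2.35 (Hspa1b), 3.64 (Dnajb1) and 0.18 (Hspe1).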
